A study of Homo sapiens with 9 samples.

Results

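The histone genes of the human genome were followed on 9 arrays of HEK293 cells carrying different short hairpin RNAs (shRNAs). A probe was taken when its RefSeq accession mapped to a gene whose current symbol begins with H1-, H2AC, H2BC, H3C or H4C, to one of the variants H2AJ, H2AX, H2AZ1, H2AZ2, H3-3A, H3-3B, MACROH2A1 and MACROH2A2, or to a gene with an older HIST1H, HIST2H or HIST3H symbol. This gave 95 probes of 79 genes, out of 42384 probes of 35181 genes or unnamed transcripts. Of these, 54 genes lay in the HIST1 cluster on chromosome 6, 8 in HIST2 and 3 in HIST3 on chromosome 1, and 14 outside the clusters. Probes entered the test when 1 of the groups had all its arrays well above background, which left 89 probes of 75 histone genes among 32276 probes of 26862 genes. The 4 genes without a tested probe were H1-5, the testis H2B gene H2BC1, the oocyte linker histone H1-8 and the pseudogene H1-9P.

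Histones package DNA: H2A, H2B, H3 and H4 form the core of the nucleosome, and H1 binds the linker DNA between nucleosomes. Most of them are encoded by many small, intronless genes packed into clusters and transcribed in S phase, whose mRNAs end in a stem-loop instead of a poly(A) tail. Variant histones such as H2A.Z, macroH2A and H3.3 come from single genes outside the clusters, are made throughout the cell cycle, and have polyadenylated mRNAs. SmcHD1, a protein of the structural maintenance of chromosomes family that acts in gene silencing, for example on the inactive X chromosome, is an architectural rather than a histone component of chromatin.

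HEK293 is a human embryonic kidney line. Its cells were infected with a retroviral vector and selected with puromycin, so that all 3 groups carried the vector and differed in its hairpin: shRNA 3 or shRNA 4, both directed at SmcHD1, or the control shRNA NC5, with 3 arrays each. Each group was a stably infected population. The methods call the samples biological triplicates, while the labels do not say whether they came from separate cultures. Where they did not, the p-values measure only a technical spread. The comparisons asked how mRNA levels differ once SmcHD1 is lowered. The labelling primes from poly(A), so for clustered genes, whose mRNAs mostly end without it, the signal need not follow the whole mRNA level. All 3 SMCHD1 probes were lower on all 6 knock-down arrays, with 49.1 to 51.0% of the NC5 level left in shRNA 3 cells and 34.4 to 35.2% in shRNA 4 cells.

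Between 75.1 and 79.8% of probes stood well above background on each array, and the lowest correlation between 2 arrays of a group was 0.995. All 8 of the HEK293 markers examined were above background on all 9 arrays, and so were 10 of 14 markers of blood, endothelium, fibroblasts, hepatocytes and muscle, while PECAM1 was above it on 0 arrays and ALB on 1. Of the 8 HEK293 markers 4 fell with each shRNA and 1 rose with shRNA 4, and of the 14 others 1 rose and 2 fell with shRNA 3 and 2 fell with shRNA 4. Their part in the histone results was not tested. The arrays lay on 2 slides: shRNA 3 replicates 1 and 3, shRNA 4 replicate 1 and NC5 replicate 1 on slide 2, and the others on slide 1. NC5 replicate 1 stood apart for the histone genes: relative to each gene's NC5 mean, its histone median was -0.15 on the log2 scale, against 0.08 and 0.11 for NC5 replicates 2 and 3, while its median over all genes was -0.02. The counts over all histone genes, the HIST1 H2B and H1 counts and the clustered H2A medians are given with and without it. The H3 and H4 class counts and most values of individual genes are given only with it.

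Among the 75 tested histone genes 11 rose and 8 fell in shRNA 3 cells, and 16 rose and 6 fell in shRNA 4 cells, each against NC5. Here rose and fell mean an adjusted p under 0.05 in limma, a linear model fitted across all tested probes. Of all 26862 tested genes 9.47% rose and 10.5% fell with shRNA 3, and 13.4% rose and 14.7% fell with shRNA 4. The histone shares were 14.7% rising and 10.7% falling with shRNA 3 and 21.3% rising and 8.0% falling with shRNA 4. The falling shares thus lay near or under those of all genes, and the difference of the rising shares from them was not tested. The median log2 fold change of the histone genes was -0.10 with shRNA 3 and -0.03 with shRNA 4, against 0.01 and 0.04 over all tested genes. These counts were sensitive to 1 array: without NC5 replicate 1, 10 histone genes rose and 20 fell with shRNA 3, and 12 rose and 16 fell with shRNA 4. By the methods' t-test, adjusted by the Benjamini-Hochberg procedure, 1 histone gene passed with shRNA 3 (H2BC12) and 2 with shRNA 4 (H2BC3 and H2BC7).

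Few histone genes changed by 1.8-fold or more as well as passing the adjusted p. With shRNA 3 H2BC12 was among them, which rose, and H1-3, which fell, where 1.15% of all tested genes rose and 2.19% fell by this rule. With shRNA 4 H2BC7 was among them, which rose (not past 1.8-fold with normexp background correction), and again H1-3, where the shares over all genes were 1.43% and 3.16%.

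The calls were then counted by histone class, and the fold changes are plotted by class. Over all tested genes 9.47% rose and 10.5% fell with shRNA 3, and 13.4% rose and 14.7% fell with shRNA 4. Whether a class departs from these shares was not tested. Of the 14 tested H2B genes of HIST1, 10 rose with shRNA 3 and 12 with shRNA 4, with medians of 0.42 and 0.43 on the log2 scale, and the fold change of each of the 14 was above 0 in either comparison. Of the 5 tested H1 genes of HIST1 2 fell with each shRNA, H1-3 and H1-4. In the H2A class 1 of 21 genes rose and 4 fell with shRNA 3, and 1 rose and 2 fell with shRNA 4. These are limma calls. The methods' t-test called 1 of 17 tested H2B genes with shRNA 3 and 2 with shRNA 4. It called 0 of 8 H1 genes and 0 of 21 H2A genes with either shRNA. In the H3 class 3 of 15 rose with shRNA 4, and with shRNA 3 limma called 0 of 15, against 3 at an unadjusted p under 0.05 and 0 by the methods' t-test. Among the H4 genes limma and the methods' t-test both called 0 of 14 genes with either shRNA, with 1 gene at an unadjusted p under 0.05 with shRNA 3 and 2 with shRNA 4. No test of one class against another was run.

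**Figure D1:**
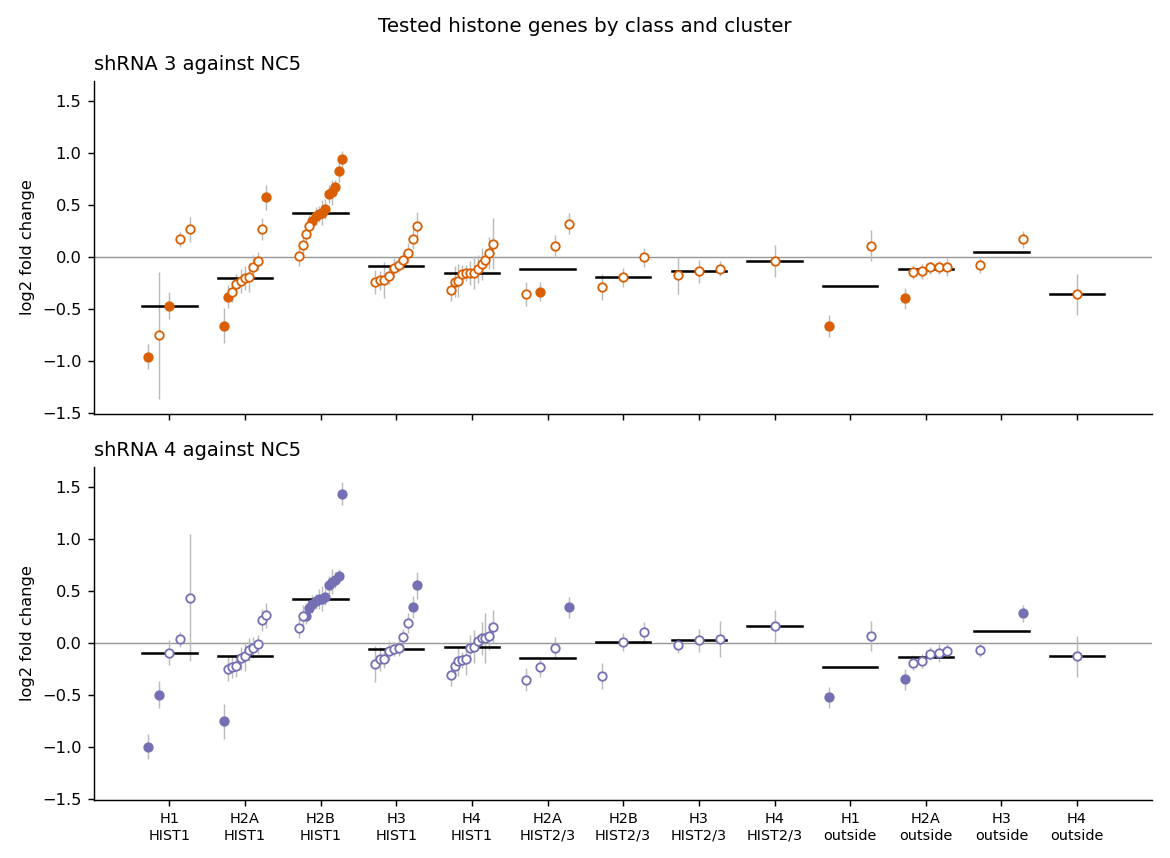
Log2 fold change of tested histone genes against NC5, for shRNA 3 (top) and shRNA 4 (bottom), by class and cluster. Each point is 1 gene with its standard error, filled where the adjusted p was under 0.05, and black bars are medians. The H2B genes of HIST1 lie above 0 with medians of 0.42 and 0.43, and H1-3 is the lowest point of HIST1 in both panels.

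The H2B genes of HIST1 encode near-identical copies of histone H2B, the partner of H2A in the nucleosome core. H2BC7 showed the highest fold change of them with shRNA 4. Its log2 intensities were 4.61, 4.81 and 4.85 on the NC5 arrays, 5.51, 5.57 and 5.68 with shRNA 3, and 6.25, 6.0 and 6.35 with shRNA 4. The 3 groups did not overlap, and shRNA 4 lay above shRNA 3. H2BC7 rose by 0.83 ± 0.11 (SE) on the log2 scale, or 1.78-fold, with shRNA 3 (limma adjusted p = 0.00129) and by 1.44 ± 0.11, or 2.71-fold, with shRNA 4 (limma adjusted p = 5.95e-05). With normexp background correction the log2 fold changes of H2BC7 were 0.40 and 0.68, both past the adjusted p and neither past 1.8-fold.

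H2BC12 was the H2B gene with the highest fold change with shRNA 3. Its brighter probe read 12.27, 12.17 and 12.22 on the NC5 arrays, 13.12, 13.25 and 13.12 with shRNA 3, and 12.89, 12.70 and 12.89 with shRNA 4. By this probe the order of the knock-down groups was the other way round, with the shRNA 3 arrays above the shRNA 4 arrays. The difference between them did not pass (limma adjusted p = 0.0678). H2BC12 rose 1.92-fold with shRNA 3 (log2 0.94 ± 0.08, limma adjusted p = 0.000134) and 1.52-fold with shRNA 4 (0.61 ± 0.08, 0.000941). A second, dimmer probe of the same transcript also rose, by 0.41 and 0.42, or 1.33-fold and 1.34-fold. It did not show this order, with 0.003 for shRNA 4 against shRNA 3 (limma adjusted p = 0.992).

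H2BC14 read 11.08, 11.22 and 11.05 with NC5, 11.75, 11.82 and 11.81 with shRNA 3, and 11.77, 11.76 and 11.76 with shRNA 4. All 6 knock-down arrays lay above all 3 controls, and H2BC14 rose 1.60-fold and 1.56-fold (limma adjusted p = 0.000316 and 0.000327). H2BC10 rose 1.52-fold and 1.47-fold and H2BC8 1.54-fold and 1.51-fold, again with no overlap between the knock-down and control arrays. H2BC3, H2BC4, H2BC9, H2BC13 and H2BC17 rose in both comparisons by log2 values from 0.35 to 0.46. H2BC5 and H2BC15 passed only with shRNA 4, at 0.33 and 0.26, against 0.30 and 0.22 with shRNA 3 (limma adjusted p = 0.0657 and 0.0766), and for neither gene did the difference between the shRNAs pass (limma adjusted p = 0.894 and 0.78). H2BC11 and H2BC6 did not pass in either comparison: their log2 fold changes were 0.01 and 0.12 with shRNA 3 and 0.14 and 0.26 with shRNA 4.

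**Figure D2:**
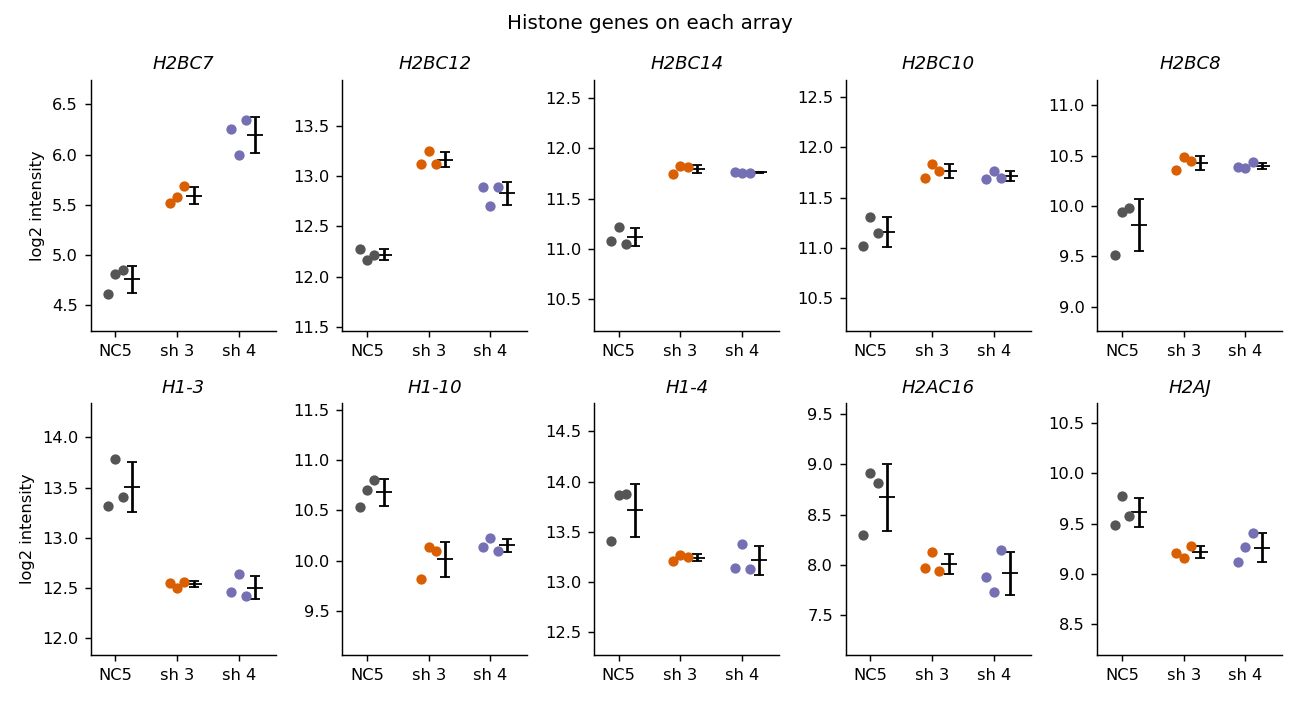
Log2 intensity of 10 histone genes on each array, with NC5 in grey, shRNA 3 (sh 3) in orange and shRNA 4 (sh 4) in purple. Points are arrays, in replicate order, and the bars beside them are the mean and SD (n = 3); each panel spans the same height on the log2 axis. The genes were picked from those that limma called in both comparisons. In every panel the control arrays and the knock-down arrays do not overlap, which for genes picked in this way is not further support. The share of all tested genes without overlap is not given here.

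The array median of the 14 HIST1 H2B genes, relative to their NC5 means, was -0.11, 0.09 and 0.06 on the NC5 arrays, 0.29, 0.52 and 0.44 with shRNA 3, and 0.42, 0.48 and 0.40 with shRNA 4. The lowest knock-down array thus lay above the highest control array. Within slide 1 the median difference of these genes from NC5 was 0.44 with shRNA 3 and 0.36 with shRNA 4, and within slide 2 it was 0.50 and 0.56. The slide 1 value with shRNA 3 rests on 1 shRNA 3 array. The slide 2 values rest on NC5 replicate 1, the lowest control, and the last of them on 1 shRNA 4 array. Leaving out 1 array at a time left 8 to 10 of the 14 genes rising with shRNA 3 and 9 to 12 with shRNA 4, with 9 in both comparisons when NC5 replicate 1 was left out.

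The H2B genes elsewhere gave other values. H2BC21 of HIST2 read 7.42, 7.88 and 7.62 with NC5, 7.36, 7.26 and 7.42 with shRNA 3, and 7.28, 7.47 and 7.20 with shRNA 4, and its groups overlapped. Its log2 fold changes were -0.29 and -0.32 (limma adjusted p = 0.142 and 0.0884). H2BC18 of HIST2 gave 0.00 and 0.11, and H2BC26 of HIST3 gave -0.20 and 0.01, none of which passed.

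The stretches before the starts of 4 H2B genes that rose and of H1-3, the lowest H1 gene of HIST1, are shown as examples. H2BC8, which rose more than H2BC10, is not shown. They were chosen partly for holding different sequence elements, so the contrast between them is not a result. Each line gives the 120 bases before the RefSeq start (assembly GRCh38.p14), 5′ to 3′ on the gene's own strand, with every match on either strand to 3 elements in capitals. These are CCAAT, known as the CCAAT box, then the TATA box, searched as TATAAA, and last the octamer that OCT factors bind, searched as ATTTGCAT. Matches of different elements were searched independently and could overlap. The stretches lie at chr6:26199396-26199515 on the plus strand (H2BC7), chr6:27146859-27146978 on the minus strand (H2BC12), chr6:27814902-27815021 on the plus strand (H2BC14), chr6:26272811-26272930 on the plus strand (H2BC10) and chr6:26234988-26235107 on the minus strand (H1-3).
H2BC7: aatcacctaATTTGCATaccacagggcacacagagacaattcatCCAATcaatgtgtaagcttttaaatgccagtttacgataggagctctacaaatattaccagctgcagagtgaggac
H2BC12: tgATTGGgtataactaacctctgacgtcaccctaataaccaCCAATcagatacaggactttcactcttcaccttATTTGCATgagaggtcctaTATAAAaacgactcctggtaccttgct
H2BC14: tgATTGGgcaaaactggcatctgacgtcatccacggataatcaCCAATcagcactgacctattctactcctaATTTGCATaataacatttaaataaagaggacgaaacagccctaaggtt
H2BC10: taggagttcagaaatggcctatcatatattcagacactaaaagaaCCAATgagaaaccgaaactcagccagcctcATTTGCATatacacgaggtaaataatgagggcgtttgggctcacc
H1-3: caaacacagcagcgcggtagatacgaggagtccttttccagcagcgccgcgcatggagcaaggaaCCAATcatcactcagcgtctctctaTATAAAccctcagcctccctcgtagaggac
The octamer stands in all 4 H2B stretches and not in that of H1-3, which holds a CCAAT box and a TATA box.

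Promoter windows, from 250 bases before to 50 after the start, were at hand for 72 of the 79 histone genes. ATTTGCAT occurred on either strand in 77.8% of the 18 clustered H2B windows and 71.4% of the 14 clustered H2A windows, in 1 of 11 clustered H3 windows, and in 0 of 6 H1 and 0 of 11 H4 windows, against 1.8% of all 27305 windows. CCAAT occurred in every clustered H1, H2A, H2B and H3 window and in 3 of 11 H4 windows, against 35.7% of all windows, and TATAAA in 61.1% of histone windows against 12%. Among the 17 tested H2B genes 9 of the 13 with the octamer rose with either shRNA, and of the 4 without it 1 rose with shRNA 3 and 3 with shRNA 4. The rising shares of all tested genes were 9.47% with shRNA 3 and 13.4% with shRNA 4. The octamer was present at H2BC11 and H2BC6 of HIST1 and at H2BC18 and H2BC21 of HIST2, which did not pass with either shRNA. It was absent at H2BC13, which rose with both shRNAs. Whether the octamer goes with the calls was not tested. A match is a stretch of letters and not evidence of a bound factor.

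Many H2A and H2B genes sit head to head and share the stretch between their starts. By the RefSeq starts, 10 such pairs lay within 600 bases, and in 9 of them both genes were tested, with 194 to 246 bases between the starts. The H2B gene rose in 6 of these 9 pairs with shRNA 3 and in 7 with shRNA 4. Of the H2A partners 1 rose with shRNA 3 (H2AC13) and none passed with shRNA 4. The rising shares of all tested genes were 9.47% with shRNA 3 and 13.4% with shRNA 4. Whether the pairs depart from these shares was not tested. The median log2 fold change of the H2B genes in the pairs was 0.41 and 0.43, and that of the H2A genes -0.10 and -0.06. At the H2AC7 and H2BC7 pair the H2A gene gave -0.04 and -0.01 where the H2B gene gave 0.83 and 1.44, and at H2AC14 and H2BC14 the values were -0.10 and -0.06 against 0.68 and 0.64. The exceptions with shRNA 3 were H2AC13 and H2BC13, at 0.57 and 0.39, and H2AC25 and H2BC26 of HIST3, at 0.10 and -0.20. The differences within pairs were not tested.

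**Figure D3:**
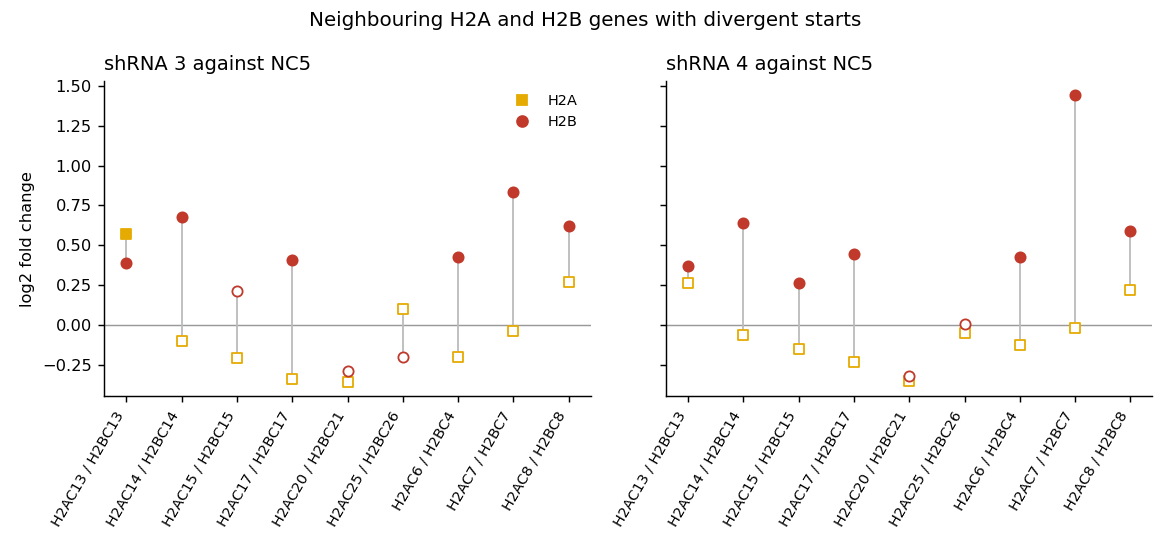
Log2 fold change against NC5 of the 9 head-to-head pairs in which both genes were tested, H2A as squares and H2B as circles, filled where the adjusted p was under 0.05. The grey line joins the 2 genes of a pair. The H2B gene lies above its H2A partner in 7 of 9 pairs with shRNA 3 and in 9 of 9 with shRNA 4.

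The tested genes of HIST1 fall into 2 stretches on either side of the widest gap, 33 genes from H2AC1 to H4C8 and 19 from H2BC11 to H2BC17. H2B genes rose in both: 6 of 8 and 4 of 6 with shRNA 3, and 7 of 8 and 5 of 6 with shRNA 4. The rising shares of all tested genes were 9.47% and 13.4%, and the differences from them were not tested. The median over all histone genes of a stretch was -0.03 and -0.10 with shRNA 3 and 0.04 and -0.03 with shRNA 4. The H2B genes lie between genes of the other classes, as the plot along the cluster shows. H2BC7, for example, lies between H2AC7 and H4C5, neither of which passed.

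**Figure D4:**
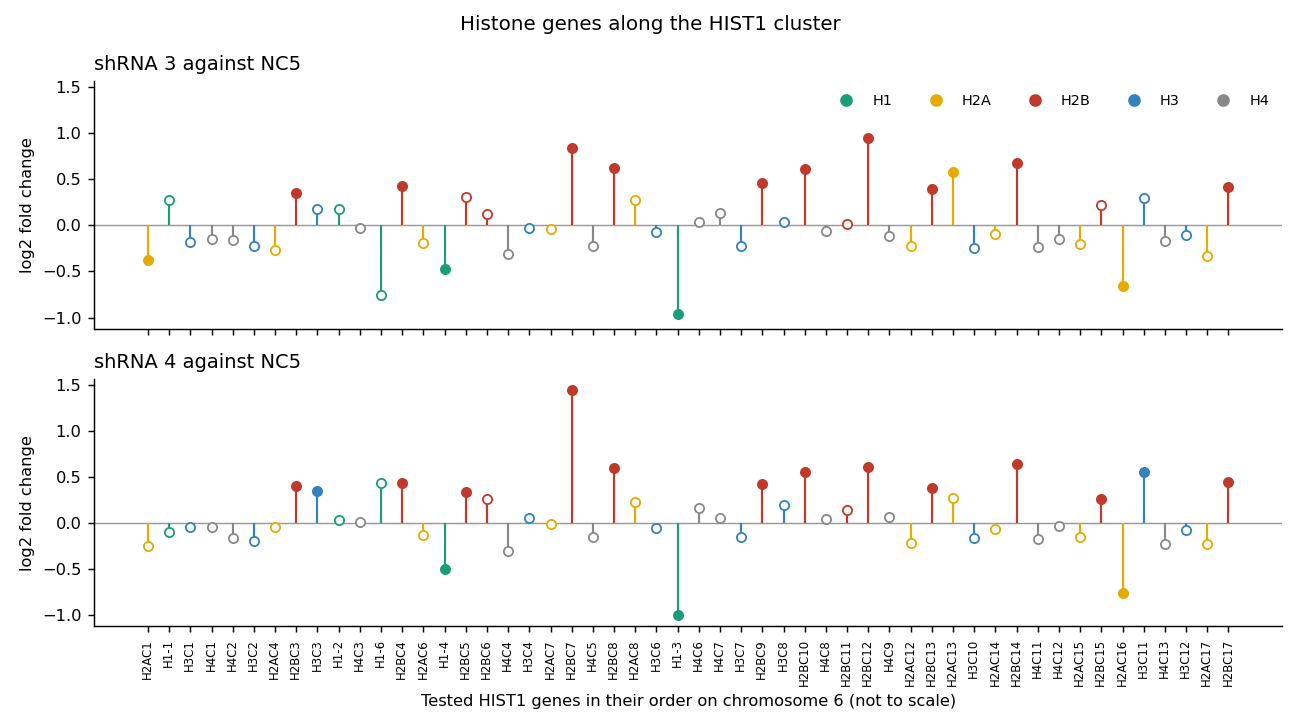
Log2 fold change of the 52 tested HIST1 genes against NC5 in their order on chromosome 6, coloured by class and filled where the adjusted p was under 0.05. The spacing is even and not to scale. Rising H2B genes (red) are spread over the cluster among genes of other classes, and H1-3 and H1-4 (green) fell.

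H1 histones bind linker DNA. H1-3, a replication-dependent linker histone gene of HIST1, read 13.31, 13.78 and 13.41 with NC5, 12.55, 12.51 and 12.56 with shRNA 3, and 12.46, 12.64 and 12.42 with shRNA 4. No knock-down array reached the controls. It fell 1.95-fold (log2 -0.96 ± 0.12, limma adjusted p = 0.00112) and 2.0-fold (-1.0 ± 0.12, 0.00071). Within slides the differences of H1-3 ran from -1.09 to -0.76, with 1 shRNA 3 array on slide 1 and 1 shRNA 4 array on slide 2.

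H1-10, the single gene of the linker histone H1.10, fell 1.59-fold and 1.44-fold (limma adjusted p = 0.00318 and 0.00696), and H1-4 of HIST1 fell 1.39-fold and 1.41-fold (0.0359 and 0.0224). For H1-4 NC5 replicate 1, at 13.41, lay nearest to the knock-down arrays, which ran from 13.13 to 13.38. H1-2, with the highest mean fold change of the HIST1 H1 genes, gave 0.17 and 0.04, and H1-1 gave 0.27 and -0.10, none of which passed. The testis H1 genes did not pass either: H1-7 gave 0.11 and 0.07, and H1-6 gave -0.76 and 0.44 with a standard error of 0.61, since 1 shRNA 4 array read 7.0 where the others read 4.82 and 4.28. Leaving out 1 array at a time left 1 or 2 of the 5 H1 genes of HIST1 falling: with shRNA 3 there was 1 without any of shRNA 3 replicates 1 to 3, shRNA 4 replicate 1 and NC5 replicates 2 and 3, and with shRNA 4 there was 1 without shRNA 4 replicates 1 or 3 or NC5 replicates 2 or 3. Without NC5 replicate 1 both fell in both comparisons.

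Clustered H2A genes mostly lay slightly below NC5, with a median of -0.20 with shRNA 3 and -0.13 with shRNA 4 over 15 genes, and these medians went to -0.36 and -0.28 without NC5 replicate 1. H2AC16 read 8.29, 8.91 and 8.82 with NC5, 7.97, 8.13 and 7.94 with shRNA 3, and 7.88, 7.73 and 8.15 with shRNA 4. The groups did not overlap, although NC5 replicate 1 lay close to the highest knock-down array. H2AC16 fell 1.58-fold and 1.69-fold (limma adjusted p = 0.0267 and 0.0116), and the call with shRNA 3 was lost when any of 5 arrays was left out. H2AC1 and H2AC21 fell with shRNA 3, by 0.38 and 0.33, and gave -0.25 and -0.23 with shRNA 4 without passing.

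Among H2A genes H2AC13 and H2AC19 went up. H2AC13 read 9.45, 9.81 and 9.93 with NC5 and 10.28, 10.37 and 10.26 with shRNA 3, and rose 1.49-fold (limma adjusted p = 0.0126). With shRNA 4 it read 10.04, 10.08 and 9.87, which overlapped the controls (log2 0.27, limma adjusted p = 0.14). H2AC19 of HIST2 rose 1.27-fold with shRNA 4 (limma adjusted p = 0.0355) and gave 0.32 with shRNA 3 (0.0581).

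Probes of 1 gene did not always give the same size of change. H2AC17 has 2 probes of the same transcript. The brighter probe gave log2 fold changes of -0.33 and -0.23 (limma adjusted p = 0.0564 and 0.138), and the dimmer probe fell by 1.22 and 1.01 (0.000186 and 0.000362). The dimmer probe read 9.86, 10.14 and 10.19 with NC5 and between 8.72 and 9.15 on the knock-down arrays. H4C1 was the reverse case: its brighter probe gave -0.15 and -0.05, and its dimmer probe rose by 0.83 and 0.70 (limma adjusted p = 0.00415 and 0.00641). No clustered histone gene had 2 probes called in opposite directions. Histone genes of a class share much of their coding sequence, and how far a probe also reads a paralogue was not tested.

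Outside the clusters H2AJ encodes a variant close to the canonical H2A. Its brighter probe read 9.48, 9.77 and 9.58 with NC5, 9.21, 9.16 and 9.28 with shRNA 3, and 9.12, 9.26 and 9.40 with shRNA 4. No knock-down array reached the lowest control, and H2AJ fell 1.32-fold and 1.27-fold (limma adjusted p = 0.0257 and 0.0317), although each call was lost when any of 4 arrays was left out. A dim second probe of the same transcript was well above background on 3 of 3 NC5 arrays, 1 of 3 shRNA 3 arrays and 0 of 3 shRNA 4 arrays. This probe was tested only because of its NC5 arrays, so its p-value is not given. Its size of change depended on how background was treated. With shRNA 4 set to the lowest signal well above background, or the probe's own where higher, NC5 stood 7.57-fold above it. With normexp background correction the shRNA 4 difference was -0.77 on the log2 scale, so 7.57-fold is not a lower bound.

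H3-3B, one of the pair of genes for the replacement histone H3.3, read 15.24, 15.01 and 15.18 with NC5, 15.32, 15.37 and 15.26 with shRNA 3, and 15.41, 15.37 and 15.51 with shRNA 4. It rose 1.22-fold with shRNA 4 (limma adjusted p = 0.0305) and gave 0.17 with shRNA 3 (0.184). The shRNA 4 call was lost when any of 5 arrays was left out, with adjusted p-values up to 0.104, and by the methods' t-test (0.138). Its second probe rose in both comparisons, by 0.32 and 0.29. H3-3A, the other H3.3 gene, gave -0.08 and -0.06.

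The other variants gave small values that did not pass. H2AX, the variant phosphorylated at DNA breaks, gave -0.14 and -0.19, H2AZ1 gave -0.15 and -0.18, and H2AZ2 gave -0.10 and -0.07. MACROH2A1 and MACROH2A2, which encode variants enriched on the inactive X chromosome, each gave -0.10 in both comparisons. H4C16, the single H4 gene outside the clusters, read between 3.88 and 4.74 on all arrays and gave -0.36 and -0.13.

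Among clustered H3 genes the highest fold changes were those of H3C11. It read 10.13, 9.79 and 10.07 with NC5, 10.37, 10.27 and 10.24 with shRNA 3, and 10.52, 10.35 and 10.79 with shRNA 4. H3C11 rose 1.47-fold with shRNA 4 (limma adjusted p = 0.0129), and gave 0.30 with shRNA 3 (0.144), where its arrays also lay above the controls. H3C3 rose 1.27-fold with shRNA 4 (limma adjusted p = 0.0353). H3C2, with the lowest mean fold change of the clustered H3 genes, gave -0.22 and -0.20 without passing, and its groups overlapped.

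The H4 genes ran from -0.36 to 0.13 with shRNA 3 and from -0.31 to 0.16 with shRNA 4. H4C4 was the lowest clustered H4 gene. Its brighter probe read 14.99, 15.32 and 15.39 with NC5 and between 14.85 and 14.98 on the knock-down arrays, just below the lowest control (log2 -0.32 and -0.31, limma adjusted p = 0.0702 and 0.0626). H4C6, with the highest mean of both fold changes, gave 0.03 and 0.16. The array medians of the 13 clustered H4 genes were -0.33 for NC5 replicate 1 and 0.09 and 0.18 for NC5 replicates 2 and 3, so that all 6 knock-down medians, from -0.18 to 0.00, lay between control arrays. Within slide 1 the H4 median difference was -0.17 with shRNA 3, from 1 shRNA 3 array, and -0.22 with shRNA 4. Within slide 2, where NC5 replicate 1 was the only control, it was 0.05 and 0.16, the latter from 1 shRNA 4 array.

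**Figure D5:**
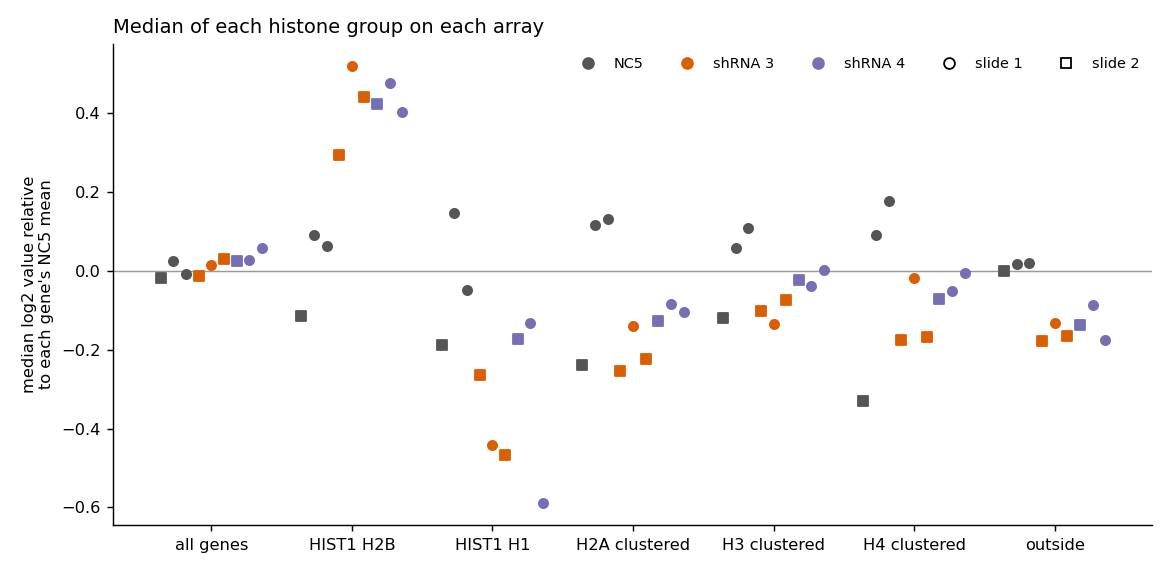
Median log2 value of each histone group on each array, relative to each gene's NC5 mean. Grey, orange and purple are NC5, shRNA 3 and shRNA 4, and circles and squares are slides 1 and 2. NC5 replicate 1 (grey square) lies below NC5 replicates 2 and 3 in every clustered group, and the knock-down arrays stand clear of all controls for the HIST1 H2B genes.

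The 2 knock-downs were then compared directly. Of the 75 histone genes 1 was higher with shRNA 4 than with shRNA 3, H2BC7 (log2 0.61 ± 0.11, limma adjusted p = 0.0287), where 0.99% of all tested genes were higher and 1.5% lower. At 1.8-fold limma called 0 histone genes, against 0.197% of all genes higher and 0.242% lower, and 5 histone genes had an unadjusted p under 0.05 at any fold, while the methods' t-test called 0. H2BC12 gave -0.34 (limma adjusted p = 0.0678).

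Genes that act on histone mRNA and histone proteins were read beside the histones. Over all tested genes 9.47% rose and 10.5% fell with shRNA 3, and 13.4% rose and 14.7% fell with shRNA 4. In 23 tested genes of histone mRNA processing 6 rose and 2 fell with shRNA 3 and 7 rose and 3 fell with shRNA 4, none of them by 1.8-fold. These were 26.1% rising and 8.7% falling, and 30.4% rising and 13% falling, so the falling shares lay near or under those of all genes. By the mean of both fold changes the highest was TUT7, a terminal uridylyltransferase, at 0.49 and 0.38, and the lowest ZNF473, a component of the U7 particle that cleaves histone pre-mRNA, at -0.45 and -0.51. CASP8AP2, which also acts in that cleavage, fell by 0.35 and 0.54. SLBP, which binds the histone stem-loop, fell by 0.25 with shRNA 4 and gave -0.18 with shRNA 3.

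Of 29 tested histone chaperones and exchange factors 3 rose and 2 fell with shRNA 3, and 4 rose and 1 fell with shRNA 4. The rising shares, 10.3% and 13.8%, were near those of all genes. The falling shares, 6.9% and 3.45%, lay under the 10.5% and 14.7% of all genes, and this difference was not tested. By the mean of both fold changes the highest was the transcription elongation factor SUPT6H, at 0.21 (not passing) and 0.47, and the lowest YEATS4, a subunit of the complexes that place H2A.Z, at -0.28 and -0.48. The H3-H4 chaperones ASF1A and ASF1B went opposite ways with shRNA 3, at 0.38 and -0.43, and gave 0.11 and -0.13 with shRNA 4 without passing.

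Of 44 genes of S phase and replication 1 rose and 9 fell with shRNA 3, and 4 rose and 11 fell with shRNA 4. The falling shares were 20.5% and 25%, against 10.5% and 14.7% of all genes, and the rising shares 2.27% and 9.09%, against 9.47% and 13.4%. These differences were not tested. The gene that rose with both was CDC6, which loads the replicative helicase, at 0.67 and 0.67. The lowest by the mean of both was the transcription factor E2F2, at -0.68 and -0.61. The median of the list was -0.12 and -0.10. The part of the cell cycle distribution in the histone values was not tested.

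Of 16 tested genes of other kinds lying inside HIST1, 2 rose with shRNA 3 and 2 rose and 2 fell with shRNA 4. Each of these is 12.5% of the list, near the share of all genes. BTN2A1, of the butyrophilin family, was the highest at 0.48 and 0.64, ABT1 also rose, at 0.47 and 0.57, and BTN2A2 was the lowest at -0.23 (not passing) and -0.31. Beside H2AJ on chromosome 12, ARHGDIB fell by 0.69 and 0.83, and the other 5 genes tested there did not pass.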

How the data were processed

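RNA of HEK293 cells stably infected with shRNA 3, shRNA 4 or the control NC5 was labelled with Cy3 and hybridised to 9 one-color Agilent arrays. The labelling kit the methods name primes from poly(A), which stem-loop histone mRNAs lack. Their signal covers only the part that this labelling reaches, and how large that part is was not measured. Per the file headers the authors' scanner output comes from Feature Extraction 10.10.1.1 (10.10 in the submitters' processing notes), as background-subtracted spot intensities. The authors also deposited a log2 table of the same arrays, normalized by the authors in GeneSpring, which served as an alternative.

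Here log2 intensities of 58717 spots were quantile normalized, with 260 to 634 outlier spots per array left out, and averaged per probe. Of 42405 probes 21 were dropped. Accessions named 25422 probes through RefSeq. Group means were fitted over all 9 arrays with limma 3.58.1 (R 4.3.3) on the probes that had a whole group well above background, and p-values were Benjamini-Hochberg adjusted over all 32276 of them. A gene counts by its tested probe of highest mean, and a level is never compared between probes. The fit was tested on simulated data. The number of arrays limits the precision. Promoter sequences come from RefSeq, GRCh38.p14, used for names, order and sequence only, since the headers give an older build for the probes.

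The member rule, the gene lists and the tests were chosen with earlier results of these data known. Named were the genes outside the clusters, clustered genes past both thresholds, the highest and lowest clustered gene of each class and of each list, and genes with oppositely called probes. A histone gene entered the counts, but its own values are not reported here. Other genes given beside a count were named after their values were seen. Alternatives were 75th percentile scaling, normexp background (offset 50), the authors' log2 table, 2 other filters, any probe of a gene, the methods' t-test, replicate and slide blocks, 2 groups alone, and leaving out each array. Same-numbered arrays of different groups deviated with correlations from -0.08 to 0.14, so the numbers were not taken as pairs.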

Additional observations from a re-analysis of the deposited data

Results flagged for a closer look

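H2BC7 was set apart because its level differed between the 2 knock-downs, which was tested directly: shRNA 4 lay above shRNA 3 by 0.61 on the log2 scale (limma adjusted p = 0.0287), and all 3 shRNA 4 arrays lay above all 3 shRNA 3 arrays. The H2BC7 difference kept its sign under every alternative run, from 0.28 to 0.76, with adjusted p-values from 0.0227 to 0.249. It missed the threshold without the filter on dim probes (0.0559), with a block for the slide (0.0617) or for the replicate number (0.0565), with the 2 groups fitted alone (0.0548), under the methods' t-test (0.249), and when any of 5 arrays was left out. The gene has a single probe, which read between 4.61 and 6.35 on the log2 scale.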

How the results depend on the processing

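For the counts of histone genes differing, the methods' t-test left 1 gene with shRNA 3 and 2 with shRNA 4, or 1 and 1 at 1.8-fold, and taking any tested probe of a gene gave 5 and 5 at 1.8-fold. Fitting 2 groups alone gave 14 genes with shRNA 4. For shRNA 4 against shRNA 3 the count was 2 with normexp and 0 with no filter, the t-test, the slide block, the replicate block and 2 groups alone. With the replicate number as a block, for which the numbers give no pairing, 20 and 22 genes differed from NC5 and 0 between the shRNAs. Leaving out 1 array gave 12 (without shRNA 3 replicate 2) to 30 (without NC5 replicate 1) genes with shRNA 3, 14 (without shRNA 4 replicate 1) to 28 (without NC5 replicate 1) with shRNA 4, 3 to 4 in each at 1.8-fold, 0 to 1 between the shRNAs (0 without any of shRNA 3 replicates 1 to 3 or shRNA 4 replicates 1 and 3), and histone medians from -0.15 to -0.04 and from -0.10 to 0.04. The split of rising and falling genes with shRNA 3 was 14 and 6 with the slide as a block, 10 and 4 with no filter, and 11 and 6 under 75th percentile scaling, against 11 and 8. H4C4 and H3C2 with each shRNA, H2BC21 with shRNA 4 and H4C16 with shRNA 3 did not pass with all arrays. Each of these fell in 1 of the runs that left out an array. No result reversed its direction while called. The causes were not tested. Signal over background limited 4 genes to no test and left the size of change of the dim H2AJ probe uncertain.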
